A study of Mus musculus with 3 samples.

Results

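Interferon-stimulated antiviral effectors are genes that cells switch on after type I, II or III interferon. Their products act directly against viruses or intracellular microbes. The set described here holds 42 such genes of 24842 genes on the array, named by gene symbol in families of known interferon-stimulated genes. The genes are listed by symbol, but the list was chosen with earlier results of these data known. Shares of members beside shares of all genes are therefore descriptions only. RNA was measured in Hepa1c1c7 cells, a mouse hepatoma line, on 1-colour (Cy3) Agilent arrays. One group was transfected with a Cd74 vector (Cd74 is the invariant chain of MHC class II), 1 with a Tmem54 vector (Tmem54 is a transmembrane protein) and 1 with an Empty vector. Each group is 1 array, so no value has a replicate, no difference was tested and no p-value is given. Time after transfection, the promoter of the vectors and the share of cells transfected are not given in the sources used here. All 3 groups went through transfection, and untransfected cells were not analysed here. The groups are called Cd74 cells, Tmem54 cells and Empty cells.

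In outline, interferons bind surface receptors whose JAK kinases phosphorylate STAT proteins. A complex that holds Irf9 binds the interferon-stimulated response element (ISRE) in promoters, and the gamma-activated site (GAS) is a second motif of interferon-responsive promoters. The induced effectors fall into families. OAS enzymes make oligoadenylates that activate RNase L, IFIT proteins bind foreign RNA, and GBP and IRG proteins are GTPases that act at membranes around intracellular microbes. Members of the PARP family transfer ADP-ribose, and a further group holds single genes such as Isg15, Mx1 and Bst2.

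The values are processed signals, which are background-corrected spot intensities in arbitrary units. A gene is represented by its brightest probe among those well above background on at least 1 array. Differences are between log2 signals after each array's 75th percentile was subtracted, and the ± value is the scanner software's model error of the difference, which covers noise within the arrays only. A gene was counted as lower or higher when it differed by at least 2-fold. A probe that fails this detection call on 1 of the arrays compared gives only a bound, written as "at least" that fold. With 1 array per group, the number of arrays limits precision throughout.

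All 3 arrays were on 1 slide and had similar depth, with 33250 spots well above background for Cd74, 33049 for Tmem54 and 33896 for Empty. Replicate spots of a probe had a median SD between 0.0365 and 0.0396 on the log2 scale. The Cd74 probe had a signal of 10855 in Cd74 cells and 22.4 in Tmem54 cells, against 26.8 in Empty cells. The Tmem54 probe had 19747 in Tmem54 cells and failed the detection call in Cd74 and Empty cells. Of 10 hepatocyte and hepatoma markers, 6 were well above background on all 3 arrays, while Ttr, Apoa1, Apob and Hnf4a were on none. Of 10 leukocyte markers, 7 were well above background on all 3 arrays, among them Ptprc, Csf1r, Itgam and Cd3e, and Adgre1 and Klrb1c were on none. The summed signal of the leukocyte list was 57648 in Cd74 cells and 59472 in Tmem54 cells, against 58975 in Empty cells. The sum is mostly 1 probe, Siglech, and whether the bright Siglech, Ptprc and Csf1r probes read these genes alone was not tested. All 6 fibroblast markers were well above background on all 3 arrays, with a summed signal of 91826 in Cd74 cells and 82367 in Tmem54 cells, against 90696 in Empty cells. This sum is mostly 1 probe, Dcn, and does not follow the other markers. Relative to Empty cells, 5 of the 6 markers were lower in Cd74 cells and 4 of the 6 were higher in Tmem54 cells. Of 4 endothelial markers Pecam1 alone was detected (32.2 in Cd74 cells and 39.5 in Tmem54 cells, against 49.7 in Empty cells), and Cdh5, Kdr and Tek were well above background on none. The labels name no cells other than Hepa1c1c7. In bulk RNA fewer cells with a transcript and less of it per cell cannot be told apart.

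All 42 genes had a probe on the array, with 72 probes between them. Of these genes, 33 were well above background on all 3 arrays and 3 more on 1 or 2 arrays. The remaining 6 were well above background on none, namely Gbp6, Gbp7, Iigp1, Parp12, Rsad2 and Ifi44. Among these undetected genes, Rsad2 encodes viperin, an enzyme that makes a chain-terminating nucleotide, and Iigp1 is an effector GTPase of the IRG family. The labels name no interferon treatment of the cells.

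Most measured members were lower with the Cd74 vector than with the Empty vector, and most were lower with the Tmem54 vector than with the Empty vector. For Cd74 minus Empty the median difference over 36 members (3 of them bounds) was -0.43, beside 0.012 over all 15631 genes compared. A total of 31 members lay below 0, which is 86.1% of them, beside 47.6% of all genes. At least 2-fold lower were 8 members (22.2%), beside 1.41% of all genes, and 0 members were at least 2-fold higher, beside 1.02%. For Tmem54 minus Empty the median was -0.38 over 36 members (2 of them bounds), beside -0.0025 over 15520 genes. Here 32 members lay below 0 (88.9%, beside 51.0% of all genes). At least 2-fold lower were 6 members (16.7%), beside 0.818% of all genes, and 0 were higher, beside 0.515%. A member seen on the Empty array alone had to lie below 0, as Oas3 and Ifit1 did. Over the 33 members measured on all 3 arrays, 28 lay below 0 for Cd74 (84.8%, beside 46.9% of 14472 such genes) and 29 for Tmem54 (87.9%, beside 7236 of the 14472). Of these 33, 7 were at least 2-fold lower for Cd74 (21.2%, beside 0.864%) and 6 for Tmem54 (18.2%, beside 0.394%). Genes used as markers of cell types also differed in these cultures. The 6 fibroblast markers had medians of -0.40 for Cd74 minus Empty and 0.23 for Tmem54 minus Empty, with Col1a1 at -0.76 and 0.31. Pecam1 was at -0.56 and -0.34. The 6 hepatocyte markers compared had medians of -0.17 and 0.12, with Alb the furthest from 0 in both, at -0.87 and 0.83. The 8 leukocyte markers compared had medians of -0.10 and -0.03. The labels name no cells other than Hepa1c1c7, and whether these marker differences bear on the members' values was not tested. The comparisons with Empty share the Empty array, so their values are given side by side and a high Empty array and 2 low vector arrays cannot be told apart.

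**Figure D1:**
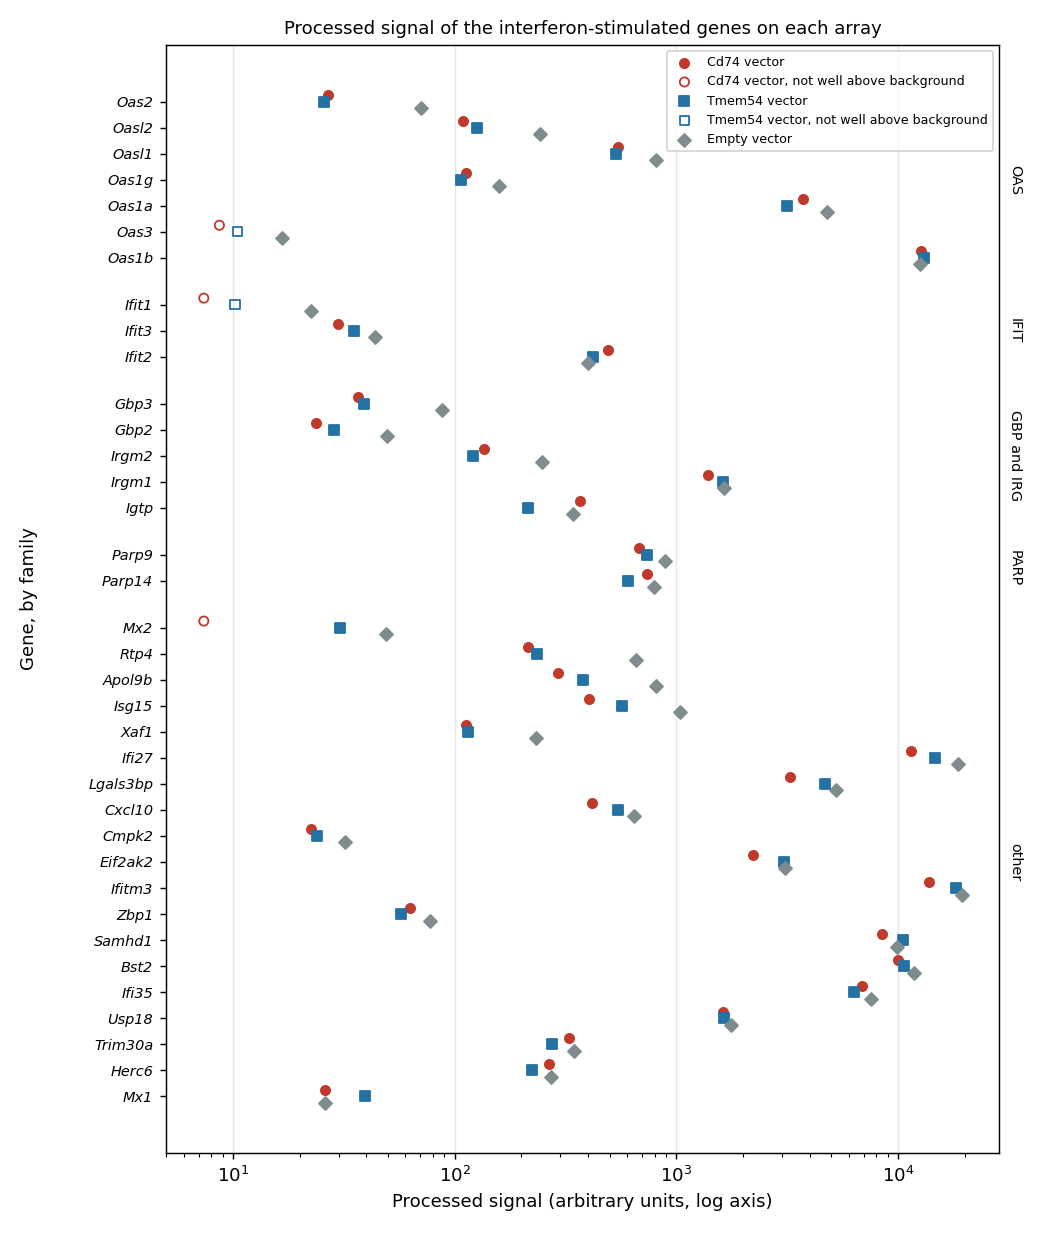
Processed signal (arbitrary units, log axis) of the 36 measured interferon-stimulated genes, by family, on the Cd74 array (circles), the Tmem54 array (squares) and the Empty array (diamonds); open symbols were not well above background. The Empty symbol lies furthest right for most genes, as it does for Rtp4 at 657.5, while the 3 symbols lie close together for Oas1b and Usp18.

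Ranked by array, the 33 members measured on all 3 were highest on the Cd74 array in 4 cases, on the Tmem54 array in 2 and on the Empty array in 27 (12.1%, 6.06% and 81.8%). Over the 14472 genes measured on all 3 arrays the shares were 46.1% for Cd74, 32.3% for Tmem54 and 21.6% for Empty. This is a description only, since both differences use the same Empty array. The lowest value was on the Cd74 array for 17 members, on the Tmem54 array for 13 and on the Empty array for 3. Between the vectors themselves the members' median lay near 0. For Cd74 minus Tmem54 the median was -0.019 over 34 members, beside 0.026 over 15422 genes. A total of 19 members lay below 0 (55.9%, beside 45.6% of all genes). In that comparison 1 member was at least 2-fold lower (2.94%, beside 1.69% of all genes) and 0 were higher (beside 1.63%).

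The OAS genes measured on all 3 arrays were lower on both vector arrays, apart from Oas1b. The family median was -0.44 for Cd74 minus Empty and -0.60 for Tmem54 minus Empty, over 7 genes. Of these 1, Oas3, is a bound that could not lie above 0. Over the 6 genes measured on all 3 arrays the medians were -0.47 and -0.61. Oas2, a synthetase with a pair of OAS units, had a signal of 26.9 in Cd74 cells and 25.8 in Tmem54 cells, against 70.6 in Empty cells. Its differences were -1.33 ± 0.26 and -1.47 ± 0.26, and its probe lies on chromosome 5 from 121180343 to 121180402 (build mm9). Oasl2, a synthetase-like protein with ubiquitin-like domains, had 109.0 in Cd74 cells and 125.8 in Tmem54 cells, against 243.1 in Empty cells. This gave differences of -1.09 ± 0.21 and -0.96 ± 0.21, which is 2.13-fold lower in Cd74 cells and 1.95-fold lower in Tmem54 cells. Both genes had vector-array signals close to each other and under the Empty signal. Oas2 is dim, beside lowest signals well above background of 13.1 to 13.9.

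Oasl1, which in mouse restrains translation of Irf7, had 547.4 in Cd74 cells and 534.7 in Tmem54 cells, against 810.5 in Empty cells. The differences were -0.50 ± 0.20 and -0.61 ± 0.20. Its further probe gave -0.57 and -0.64. The synthetase gene Oas1a had 3713 in Cd74 cells and 3171 in Tmem54 cells, against 4763 in Empty cells, with differences of -0.29 ± 0.20 and -0.60 ± 0.20. Its neighbour Oas1g had 112.0 in Cd74 cells and 106.8 in Tmem54 cells, against 158.9 in Empty cells, with differences of -0.44 ± 0.21 and -0.59 ± 0.21. Oas1a and Oas1g are close copies in a tandem cluster, and whether either probe also reads the other gene was not tested. Their promoters are shown because the genes had similar differences and the windows match in 118 of 138 aligned bases (85.51%). Each window is the 140 bases before the annotated transcript start, on the minus strand of GRCm38.p6 at chr5:120907526-120907665 for Oas1a and chr5:120887614-120887753 for Oas1g, from RefSeq. Capitals mark the ISRE core.
Oas1a: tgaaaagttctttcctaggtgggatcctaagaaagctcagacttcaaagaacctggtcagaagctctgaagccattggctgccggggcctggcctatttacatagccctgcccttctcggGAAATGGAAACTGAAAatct
Oas1g: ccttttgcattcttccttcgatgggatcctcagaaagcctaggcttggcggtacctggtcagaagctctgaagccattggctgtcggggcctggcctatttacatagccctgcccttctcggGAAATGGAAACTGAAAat

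In both windows the capitals run through overlapping ISRE cores that end just before the transcript start. Oas3, the synthetase with the most OAS units, was well above background on the Empty array alone, at 16.7. Its signal on the other arrays was 8.69 (Cd74) and 10.5 (Tmem54), which makes it at least 1.18-fold lower in Cd74 cells and at least 1.21-fold lower in Tmem54 cells. Oas1b, known as a flavivirus resistance gene of mouse, was the exception of the family. It had 12763 in Cd74 cells and 13111 in Tmem54 cells, against 12632 in Empty cells, with differences of 0.08 ± 0.20 and 0.04 ± 0.20. Its further probe had 128.9 in Cd74 cells and 125.5 in Tmem54 cells, against 142.1 in Empty cells. That probe differed by -0.08 and -0.19, with the opposite sign to the brightest one, whose values lie within their model error of 0. The Oas2 to Oas1a probes lie in 1 cluster on chromosome 5, so the near-flat Oas1b sits 57.8 kb from the Oas1g probe and 70.5 kb from the Oas3 probe (mm9).

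The IFIT genes differed from each other. Ifit1, which binds RNA caps that lack methylation, was well above background on the Empty array alone, at 22.5. Its signals of 7.39 in Cd74 cells and 10.2 in Tmem54 cells make it at least 1.60-fold lower and at least 1.63-fold lower there. Ifit3, a partner of Ifit1 in human cells, had 29.9 in Cd74 cells and 35.2 in Tmem54 cells, against 43.7 in Empty cells. Its differences were -0.48 ± 0.26 and -0.32 ± 0.26. Ifit2, an RNA-binding member of the same cluster, had 490.8 in Cd74 cells and 421.8 in Tmem54 cells, against 401.9 in Empty cells. It was the member with the highest Cd74 minus Empty difference, at 0.35 ± 0.20, while Tmem54 minus Empty was 0.06 ± 0.20. The Ifit2 and Ifit3 probes lie 12.8 kb apart on chromosome 19 (mm9). The family medians were -0.48 for Cd74 minus Empty and -0.32 for Tmem54 minus Empty, over 3 genes of which 1 is a bound. The Ifit1 promoter is shown for its separate ISRE cores (capitals), which lie further from the start than those of Oas1a. It lies on the plus strand at chr19:34640749-34640888 (GRCm38.p6, RefSeq).
Ifit1: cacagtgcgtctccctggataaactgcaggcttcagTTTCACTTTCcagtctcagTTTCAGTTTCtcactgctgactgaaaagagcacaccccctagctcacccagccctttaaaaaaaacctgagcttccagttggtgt

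Of 8 GBP and IRG genes, 5 were measured, and they held both strong and near-flat members. The family median was -0.82 for Cd74 minus Empty and -0.81 for Tmem54 minus Empty. Guanylate-binding proteins Gbp2 and Gbp3 coat the vacuoles of intracellular microbes. Gbp3 had 36.7 in Cd74 cells and 39.2 in Tmem54 cells, against 87.4 in Empty cells. It was 2.28-fold and 2.25-fold lower, with differences of -1.19 ± 0.24 and -1.17 ± 0.24. Gbp2 had 23.6 in Cd74 cells and 28.5 in Tmem54 cells, against 49.8 in Empty cells, with differences of -1.01 ± 0.28 and -0.81 ± 0.27. Both probes are dim, and they lie 64.6 kb apart on chromosome 3. Gbp7, 26.6 kb from the Gbp3 probe in the same cluster, was not well above background on any array.

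Irgm1, Irgm2 and Igtp (also called Irgm3) are regulatory GTPases that hold effector members of the IRG family inactive on the cell's own membranes. Irgm2 had 135.1 in Cd74 cells and 120.7 in Tmem54 cells, against 249.0 in Empty cells. It was 1.76-fold lower on the Cd74 array, at -0.82 ± 0.21, and 2.08-fold lower on the Tmem54 array, at -1.06 ± 0.21. Igtp, whose probe starts 15.1 kb away on chromosome 11, had 367.9 in Cd74 cells and 215.3 in Tmem54 cells, against 343.6 in Empty cells. Its differences were 0.16 ± 0.20 for Cd74 minus Empty and -0.69 ± 0.21 for Tmem54 minus Empty. Irgm2 was thus under its Empty signal on both arrays, whereas Igtp was so on the Tmem54 array alone. Igtp had the highest Cd74 minus Tmem54 difference of all members, at 0.85 ± 0.21, beside 0.24 ± 0.21 for Irgm2. Irgm1, on another stretch of chromosome 11, had 1386 in Cd74 cells and 1623 in Tmem54 cells, against 1634 in Empty cells. Its differences were -0.17 ± 0.20 and -0.02 ± 0.20. A further Irgm1 probe with signals of 242.1 (Cd74), 331.2 (Tmem54) and 297.7 (Empty) gave 0.14 for Tmem54 minus Empty, the opposite sign.

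These 5 promoters are set side by side because the genes differ in their values while each window shown holds an ISRE core (capitals). Gbp3 has a further annotated start whose window holds no ISRE core, and its window with cores is the one shown. They lie at chr3:142559904-142560043 (Gbp3, plus strand), chr3:142620523-142620662 (Gbp2, plus strand), chr11:58214837-58214976 (Irgm2, plus strand), chr11:58199416-58199555 (Igtp, plus strand) and chr11:48871421-48871560 (Irgm1, minus strand), all GRCm38.p6 from RefSeq.
Gbp3: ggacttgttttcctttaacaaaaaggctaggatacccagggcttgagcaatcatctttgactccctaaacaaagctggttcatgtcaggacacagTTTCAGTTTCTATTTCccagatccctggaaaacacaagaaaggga
Gbp2: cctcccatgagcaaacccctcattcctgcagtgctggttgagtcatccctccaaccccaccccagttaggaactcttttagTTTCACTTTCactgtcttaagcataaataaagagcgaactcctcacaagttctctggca
Irgm2: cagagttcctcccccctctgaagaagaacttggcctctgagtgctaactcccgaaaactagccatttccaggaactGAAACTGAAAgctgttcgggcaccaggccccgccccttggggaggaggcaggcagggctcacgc
Igtp: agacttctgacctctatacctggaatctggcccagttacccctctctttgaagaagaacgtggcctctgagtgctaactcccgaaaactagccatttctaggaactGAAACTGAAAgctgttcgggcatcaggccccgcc
Irgm1: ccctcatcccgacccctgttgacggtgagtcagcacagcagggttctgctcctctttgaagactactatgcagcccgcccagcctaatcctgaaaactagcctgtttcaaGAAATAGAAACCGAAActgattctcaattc

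After a shift of 30 bases, the Irgm2 and Igtp windows match in 100 of 110 bases (90.91%), and both carry the same 10 capital letters. Their Cd74 minus Empty differences of -0.82 and 0.16 therefore stand beside nearly the same letters in these windows. Irgm1 holds overlapping cores closer to its start and was near 0 in both comparisons. Both Gbp3 and Gbp2 hold the core in the reverse orientation. A motif match is a description of the letters and does not show that a factor binds there.

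**Figure D2:**
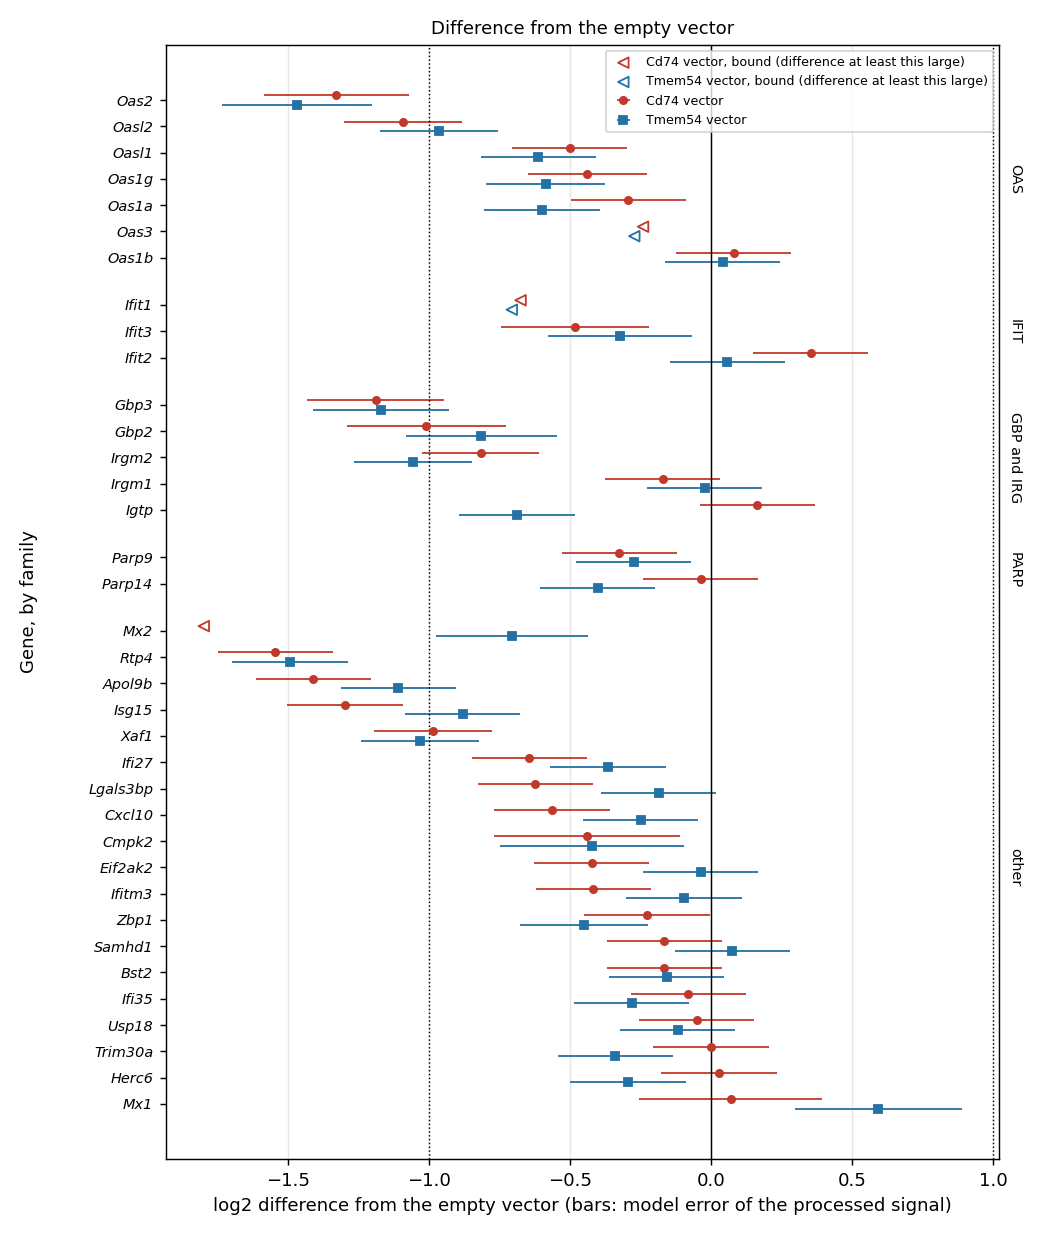
Difference from the Empty vector (log2) of each measured member, by family, for the Cd74 vector (circles) and the Tmem54 vector (squares); bars are the model error, open triangles are bounds, and dotted lines mark 2-fold. Most symbols lie left of 0, Rtp4 and Oas2 lie beyond 2-fold on both arrays, and Igtp lies on opposite sides of 0, at 0.16 and -0.69.

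PARP genes had smaller differences. Parp9, which pairs with an E3 ligase in the interferon response, had 678.2 in Cd74 cells and 741.6 in Tmem54 cells, against 888.7 in Empty cells. The differences were -0.32 ± 0.20 and -0.27 ± 0.20 for its brightest probe. Its further probes did not follow it. The second probe, with signals of 156.0 (Cd74), 144.5 (Tmem54) and 145.4 (Empty), differed by 0.17 and -0.02. The third, with signals of 24.7 (Cd74), 28.6 (Tmem54) and 21.2 (Empty), differed by 0.29 and 0.42. The direction of Parp9 is therefore not settled by these probes, which lie at different places along the gene. Parp14 is an ADP-ribosyltransferase whose probe lies 139.5 kb away on chromosome 16. It had 740.7 in Cd74 cells and 606.9 in Tmem54 cells, against 794.7 in Empty cells. Its differences were -0.04 ± 0.20 and -0.40 ± 0.20, and its further probe gave -0.16 and -0.45.

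Among the single genes, Rtp4 had the most negative measured differences. Rtp4, a chaperone of membrane receptors with antiviral activity, had 215.5 in Cd74 cells and 235.6 in Tmem54 cells, against 657.5 in Empty cells. It was 2.92-fold lower at -1.54 ± 0.21 and 2.82-fold lower at -1.49 ± 0.21 (chromosome 16, 23613668 to 23613727, mm9). Apol9b, an apolipoprotein L family member, had 291.5 in Cd74 cells and 379.3 in Tmem54 cells, against 810.6 in Empty cells. It was 2.66-fold lower at -1.41 ± 0.20 and 2.16-fold lower at -1.11 ± 0.20 (chromosome 15, 77566751 to 77566810, mm9). Apol9b has a near-identical copy, Apol9a, and its probe may read both. Xaf1, an antagonist of the apoptosis inhibitor XIAP, had 112.6 in Cd74 cells and 115.1 in Tmem54 cells, against 233.4 in Empty cells, with differences of -0.99 ± 0.21 and -1.03 ± 0.21. For Rtp4 and Xaf1 both vector arrays lay close together, at -0.05 and 0.05 for Cd74 minus Tmem54, while Apol9b was at -0.30 there.

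The ISG15 conjugation genes differed from each other. Isg15, the ubiquitin-like modifier, had 404.7 in Cd74 cells and 569.9 in Tmem54 cells, against 1041 in Empty cells. The differences were -1.30 ± 0.20, or 2.46-fold lower, and -0.88 ± 0.20, or 1.84-fold lower (chromosome 4, 155573649 to 155573708, mm9). Usp18, the protease that removes Isg15 from its targets and also dampens receptor signalling, had 1631 in Cd74 cells and 1643 in Tmem54 cells, against 1767 in Empty cells. Its differences were -0.05 ± 0.20 and -0.12 ± 0.20, so modifier and protease did not share the size of the difference. Herc6, the main Isg15 ligase of mouse, had 265.9 in Cd74 cells and 224.2 in Tmem54 cells, against 272.8 in Empty cells, with differences of 0.03 ± 0.21 and -0.30 ± 0.21. The modifier gene was thus low on both vector arrays while its protease and ligase genes were within 0.30 of the Empty array.

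Promoters of Isg15 and Apol9b, both low on each vector array, are shown with that of Bst2, a near-flat and bright member. Capitals mark ISRE cores. The windows lie at chr4:156200819-156200958 (Isg15, minus strand), chr15:77728932-77729071 (Apol9b, plus strand) and chr8:71537473-71537612 (Bst2, minus strand), on GRCm38.p6 from RefSeq.
Isg15: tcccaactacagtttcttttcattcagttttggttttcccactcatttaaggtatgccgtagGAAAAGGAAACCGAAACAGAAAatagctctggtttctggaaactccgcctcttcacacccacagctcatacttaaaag
Apol9b: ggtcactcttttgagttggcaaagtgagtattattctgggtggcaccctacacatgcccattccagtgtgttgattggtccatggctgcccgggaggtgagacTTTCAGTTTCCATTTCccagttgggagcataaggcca
Bst2: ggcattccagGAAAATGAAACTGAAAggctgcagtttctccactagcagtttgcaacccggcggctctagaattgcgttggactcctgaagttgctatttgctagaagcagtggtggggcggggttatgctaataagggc

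Isg15 holds 3 overlapping ISRE cores in a single run, and the Apol9b and Bst2 windows hold 2 overlapping cores each. Bst2, which encodes tetherin and holds budding virions on the cell surface, had 10042 in Cd74 cells and 10655 in Tmem54 cells, against 11780 in Empty cells. Its differences were -0.16 ± 0.20 for each vector, so a window with a run of ISRE cores occurred both in genes past 2-fold and in a gene near 0.

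The dynamin-like Mx genes also differed from each other. Mx2, a cytoplasmic antiviral GTPase in rodents, failed the detection call in Cd74 cells (7.39) and had 30.4 in Tmem54 cells, against 49.1 in Empty cells. This is at least 3.48-fold lower for Cd74 and -0.71 ± 0.27 for Tmem54, and it made Mx2 the only member past 2-fold between the vectors (at least 2.13-fold lower for Cd74 than for Tmem54). Mx1, the nuclear GTPase that restricts influenza virus in mouse, had 26.1 in Cd74 cells and 39.6 in Tmem54 cells, against 26.1 in Empty cells. Its differences were 0.07 ± 0.32 for Cd74 minus Empty and 0.59 ± 0.30 for Tmem54 minus Empty, the highest of that comparison among the members. Both probes are dim, and they lie 113.6 kb apart on chromosome 16 (mm9).

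For 5 further genes, set together after their values were seen, the signal was lowest in Cd74 cells and highest in Empty cells. Eif2ak2, the kinase PKR that halts translation on double-stranded RNA, had 2210 in Cd74 cells and 3049 in Tmem54 cells, against 3101 in Empty cells (-0.42 ± 0.20 and -0.04 ± 0.20). Ifitm3, which blocks virus entry at endosomes, had 13862 in Cd74 cells and 18276 in Tmem54 cells, against 19365 in Empty cells (-0.42 ± 0.20 and -0.10 ± 0.20). Lgals3bp, a secreted galectin-binding glycoprotein, had 3269 in Cd74 cells and 4676 in Tmem54 cells, against 5270 in Empty cells (-0.62 ± 0.20 and -0.18 ± 0.20). In each of these 3 genes the Tmem54 signal lay nearer to the Empty signal than to the Cd74 signal. Ifi27, a small mitochondrial membrane protein, had 11459 in Cd74 cells and 14677 in Tmem54 cells, against 18744 in Empty cells (-0.64 ± 0.20 and -0.37 ± 0.20), and its further probe gave -0.77 and -0.48. Its Tmem54 signal lay nearer to the Cd74 signal. Cxcl10, a chemokine for activated T cells, had 414.8 in Cd74 cells and 544.5 in Tmem54 cells, against 641.5 in Empty cells (-0.56 ± 0.20 and -0.25 ± 0.20). For Cd74 minus Tmem54 these 5 genes were between -0.44 (Lgals3bp) and -0.28 (Ifi27), all lower on the Cd74 array.

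Further single genes showed several patterns. In Zbp1, Trim30a and Ifi35 the signal was lowest in Tmem54 cells, Cmpk2 was about as low with each vector, and Samhd1 was lowest in Cd74 cells. Zbp1, a sensor of left-handed nucleic acids that triggers necroptosis, had 63.1 in Cd74 cells and 57.1 in Tmem54 cells, against 77.3 in Empty cells (-0.23 ± 0.22 and -0.45 ± 0.23). Trim30a, a TRIM protein of rodents, had 328.9 in Cd74 cells and 274.6 in Tmem54 cells, against 344.3 in Empty cells (-0.0005 ± 0.20 and -0.34 ± 0.21). Its further probes gave -0.0086 and -0.02 for Cd74 minus Empty, and -0.37 and -0.22 for Tmem54 minus Empty, so all 3 probes were lower in Tmem54 cells and near 0 in Cd74 cells. Ifi35, a leucine zipper protein, had 6864 in Cd74 cells and 6306 in Tmem54 cells, against 7598 in Empty cells (-0.08 ± 0.20 and -0.28 ± 0.20). Cmpk2 is a mitochondrial nucleotide kinase whose probe lies 36.2 kb from that of Rsad2. It had 22.5 in Cd74 cells and 24.1 in Tmem54 cells, against 32.0 in Empty cells (-0.44 ± 0.33 and -0.42 ± 0.33). Cmpk2 is dim, and its model error for Cd74 minus Empty was the highest among members measured on all 3 arrays. Samhd1, which depletes the nucleotides that viruses need, had 8452 in Cd74 cells and 10543 in Tmem54 cells, against 9916 in Empty cells (-0.17 ± 0.20 and 0.08 ± 0.20). Of its further probes 1, with 1531 in Cd74 cells and 1805 in Tmem54 cells, against 1799 in Empty cells, gave -0.0073 for Tmem54 minus Empty, the opposite sign at a size near 0. Over the single genes as a group, the medians were -0.42 for Cd74 minus Empty, -0.30 for Tmem54 minus Empty and -0.24 for Cd74 minus Tmem54, over 19 genes.

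**Figure D3:**
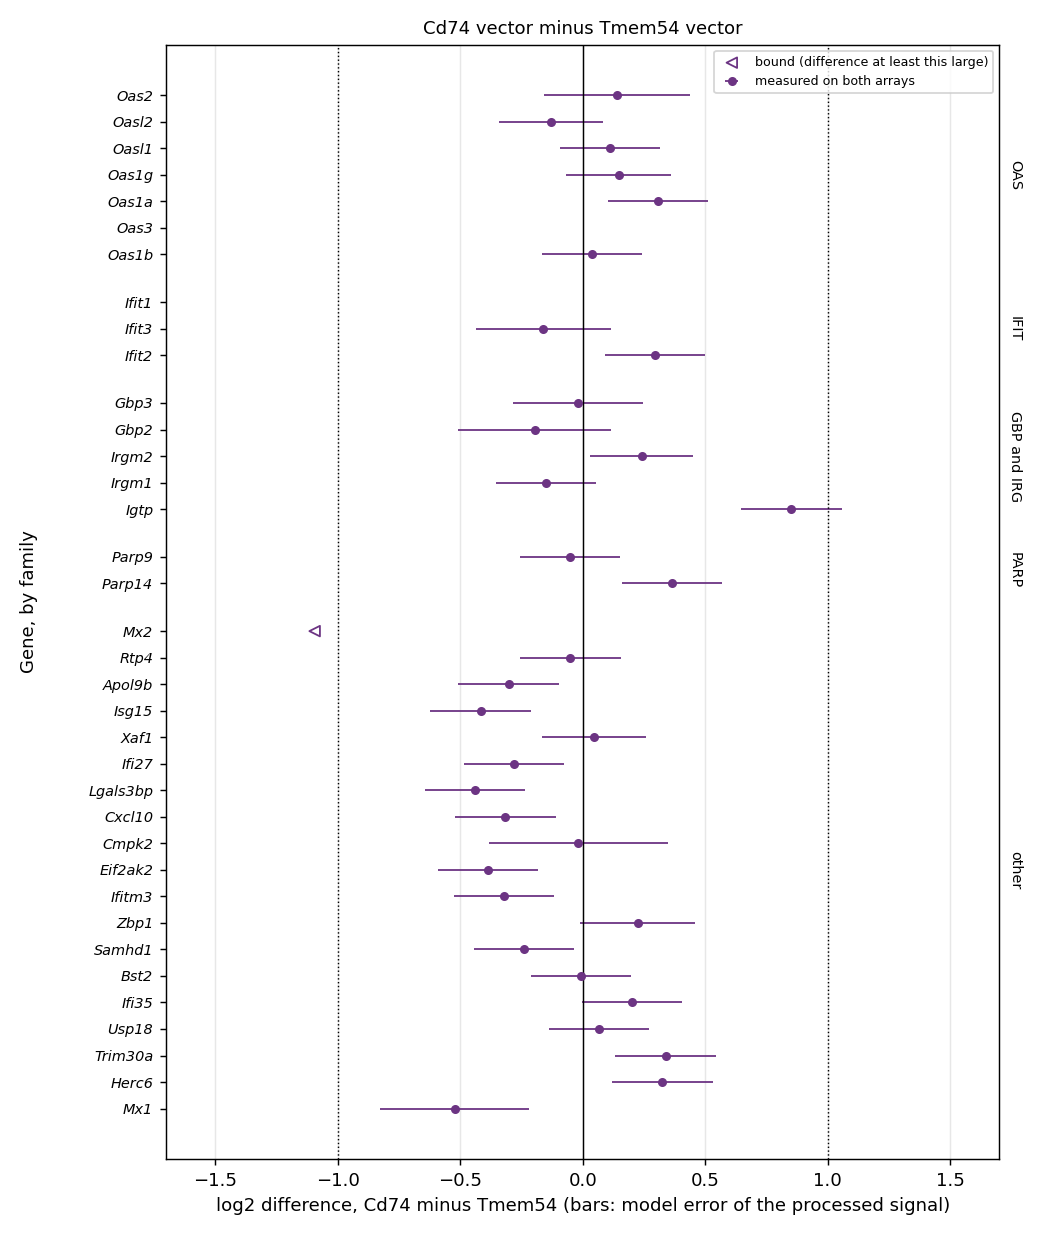
Difference between the Cd74 and Tmem54 vectors (log2, Cd74 minus Tmem54) of each member measured on both arrays, by family; bars are the model error, the open triangle is a bound, and dotted lines mark 2-fold. Igtp lies furthest right at 0.85, Mx2 lies furthest left, and most other members lie within 0.5 of 0.

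Further probes gave a check within the arrays, though not between cultures. A total of 10 members had more than 1 probe well above background, with 15 further probes for each comparison with the Empty array. For Cd74 minus Empty, 12 of 15 had the sign of the brightest probe and 14 of 15 lay within 0.5 of it. For Tmem54 minus Empty the counts were 11 of 15 and 14 of 15. In both comparisons 1 of the 15, the further Lgals3bp probe, was well above background on the Empty array alone. That probe gave a bound that could not lie above 0, so its match in sign carries no information. The probe more than 0.5 away was the third probe of Parp9 in both comparisons. None of the members past 2-fold is among these 10, so each of those rests on 1 detected probe. Oas2, Xaf1 and Mx2 have further probes on the array, and these were well above background in no group.

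**Figure D4:**
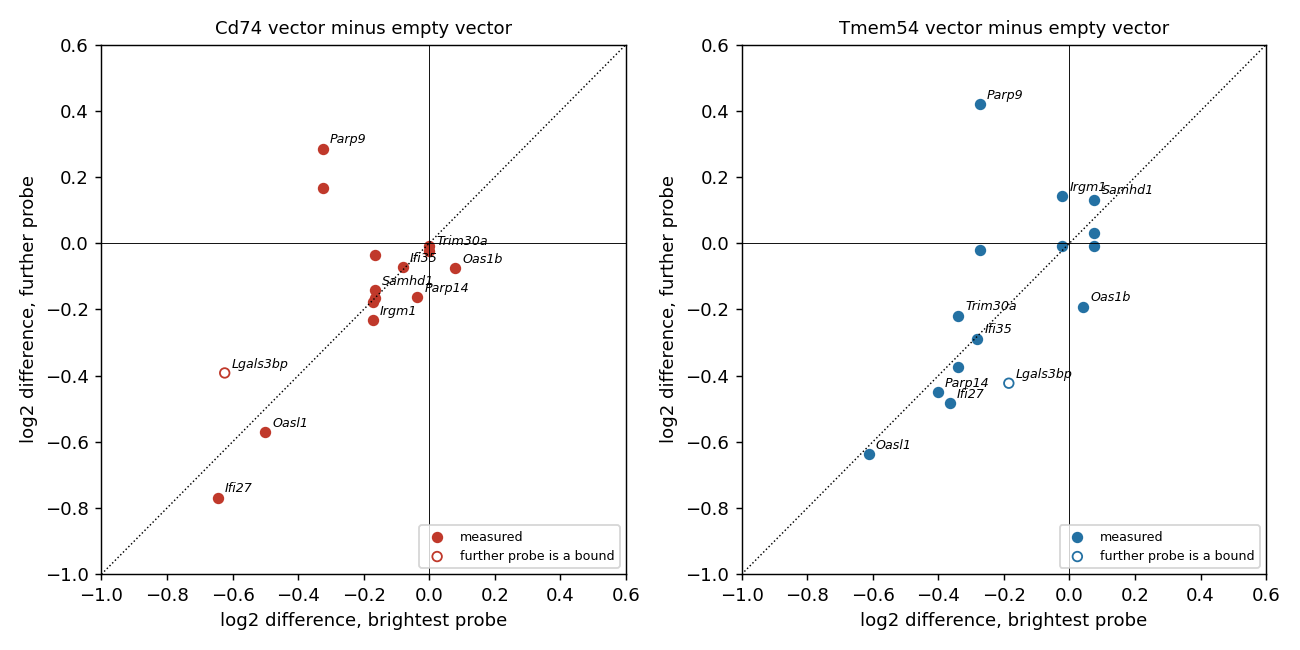
Difference from the Empty vector (log2) of each further probe against the brightest probe of the same member, for the Cd74 vector (left) and the Tmem54 vector (right); the dotted line marks equal values and open circles are bounds. Most points lie near the line, and Parp9 lies far above it, at 0.29 against -0.32 for Cd74.

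Several settings moved these counts, among them the treatment of dim probes and the fold threshold. Normexp background correction adds an offset of 50 to every spot. With it, 3 of 36 members were at least 2-fold lower for Cd74 (Rtp4 at -1.33, Apol9b at -1.26 and Isg15 at -1.17). For Tmem54 it was 1 of 36 (Rtp4 at -1.30). Over all genes, 62 of 15631 were at least 2-fold lower for Cd74 and 33 of 15520 for Tmem54 with this correction. Oas2 was at -0.58 and -0.60 there, and Gbp3 at -0.55 and -0.54. The other members counted for Cd74 were then at -0.37 (Gbp2), -0.77 (Oasl2) and -0.71 (Mx2), and those for Tmem54 at -0.97 (Apol9b), -0.74 (Irgm2) and -0.69 (Xaf1). A total of 21 members were detected in all groups with a top signal of at least 295.9, the median over detected probes. Of these, 3 were at least 2-fold lower for Cd74 and 2 for Tmem54. Over all 10080 such genes, 40 were at least 2-fold lower for Cd74 and 20 for Tmem54.

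ISRE cores were common in the members' promoters. The motif searched was GAAANNGAAA or its reverse complement TTTCNNTTTC, in windows of 250 bases before to 50 after each annotated start, where N is any base. It was found for 19 of the 30 members with a full window (63.3%), beside 1079 of 27025 genes (3.99%). The GAS core TTCNNNGAA, which is its own reverse complement, was found for 10 of 30 members (33.3%), beside 9.55% of genes. The members were picked as interferon-stimulated genes, so the ISRE share describes the choice. Members with an ISRE core had a median Cd74 minus Empty difference of -0.44 over 17 compared genes, and those without one had -0.44 over 9. For Tmem54 minus Empty the medians were -0.59 with the core and -0.30 without it. Members with a GAS core were nearer to 0, with medians of -0.17 over 9 genes for Cd74 minus Empty and -0.16 for Tmem54 minus Empty, and those without one had -0.56 and -0.59 over 17. Oas3 and Ifit1, whose bounds could not lie above 0, are among the members with an ISRE core and those without a GAS core. The 12 members with no full window, among them Rtp4 and Oas2, entered none of these counts.

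**Figure D5:**
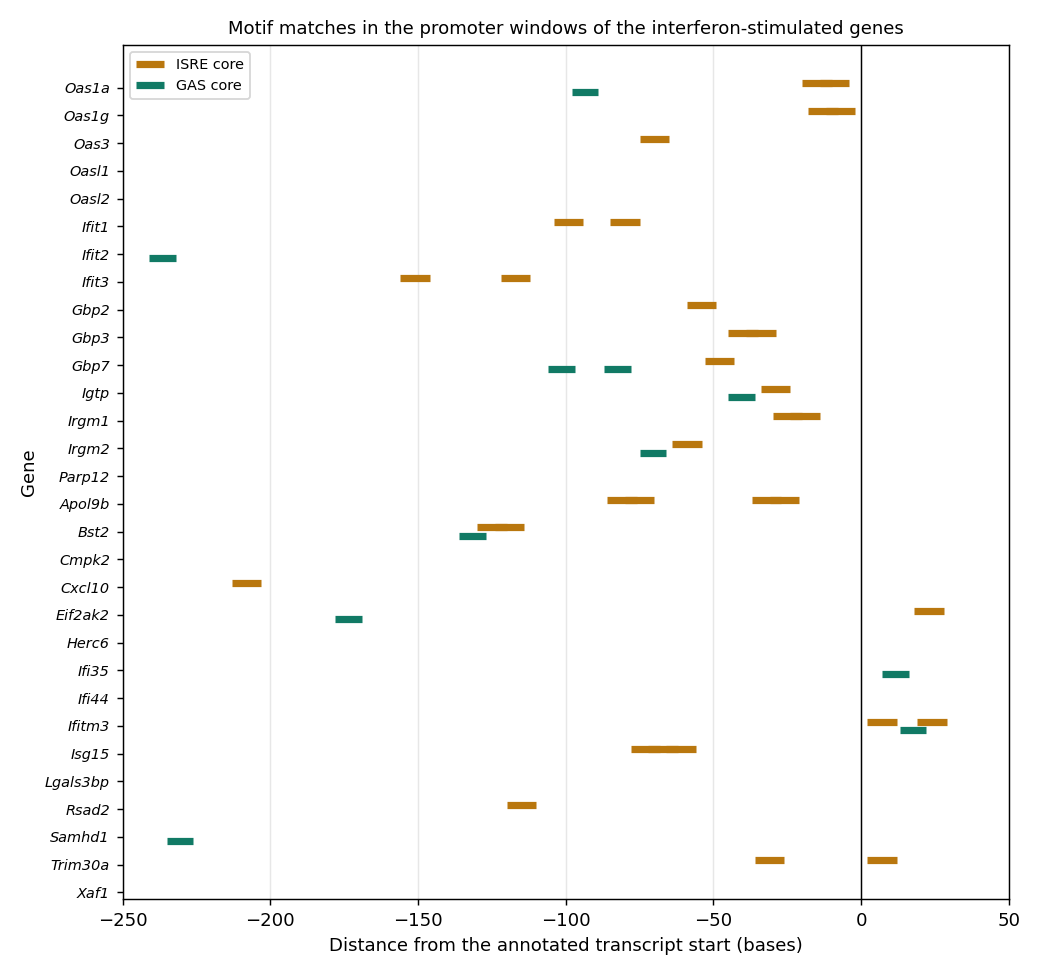
Positions of ISRE and GAS core matches (bases from the annotated transcript start, marked by the line at 0) in the promoter windows of the 30 members that have one; genes with several annotated starts show the matches of each. Isg15, Irgm2 and Bst2 hold ISRE cores before the start, Eif2ak2 and Ifitm3 after it, and 11 genes hold none.

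Genes upstream of the effectors were set beside them as a list of 40 signalling factors and sensors, of which 36 were measured on at least 1 array. Their median was -0.10 for Cd74 minus Empty and -0.02 for Tmem54 minus Empty, nearer to 0 than that of the effectors. At least 2-fold lower was 1 gene for each vector, Irf7 (2.86% for Cd74, beside 1.41% of all genes, and 2.78% for Tmem54, beside 0.818%). At least 2-fold higher was 1 gene, Ifne, for Tmem54 (2.78%, beside 0.515%) and 0 for Cd74 (beside 1.02%). Ifne, an interferon of epithelia, had 77.5 in Tmem54 cells and failed the detection call in Cd74 and Empty cells, which makes it at least 5.87-fold higher in Tmem54 cells than in Empty cells. Irf7, the factor that amplifies interferon production, had 221.5 in Cd74 cells and 271.3 in Tmem54 cells, against 622.7 in Empty cells (-1.43 ± 0.21 and -1.21 ± 0.20). The 9 transcription factors had medians of -0.43 and -0.20. Among them, Irf9 differed by -0.54 and -0.66. Irf8, a factor best known from myeloid cells, differed by -0.58 and 0.06. The 9 receptors and kinases had medians of 0.10 and -0.01. The kinase gene Jak2 differed by -0.59 and 0.04, and Tyk2, the kinase of the type I receptor, by 0.56 and 0.06. The RNA sensor gene Ddx58 (RIG-I) differed by -0.57 and -0.12, and the DNA sensor gene Cgas by -0.08 and -0.58. Of the ligands, Ifnb1 failed the detection call in Cd74 cells and had 18.7 in Tmem54 cells, against 24.9 in Empty cells, close to the lowest signals well above background (13.1 to 13.9).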

How the data were processed

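RNA of 3 Hepa1c1c7 cultures was measured on 1 one-colour Agilent array each, and groups follow the transfection label. Per the submitters' processing notes, the authors used Agilent Feature Extraction 12.0.3.1, and their deposited files hold a background-corrected intensity (processed signal) for each spot, per the file headers. The deposited value table of the series holds a ratio of that signal to a constant of its array (559.8 for Cd74, 580.7 for Tmem54 and 580.3 for Empty). Its scale is linear and genes are not centred, with column medians between 0.0503 and 0.0529. It served as an alternative.

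Control and outlier spots were left out, replicate spots were averaged on the log2 scale and each array's 75th percentile was subtracted. Probes were assigned to genes by accession (33767), symbol (9866) or synonym (310) through a RefSeq table of GRCm38.p6, and 12662 matched none. Probe coordinates are the files' mm9 positions. Bounds set a dim probe at the higher of its own signal and the array's lowest signal well above background. No count or list has a test, since each group is 1 array, so precision rests on the model error (preset multiplicative error 0.1) and replicate spots.

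The members, the signalling list, a list of family relatives and the marker lists were chosen with earlier results of these data known. Every measured member is named, further probes are named where the sign differs or the gap exceeds 0.5, and up to 8 genes of each other list are named by largest difference from Empty, except 1 gene that is not reported here. Promoter windows and sequences came from RefSeq (GRCm38.p6). The steps were tested on simulated data. Alternatives were normexp (limma 3.58.1, R 4.3.3) with quantile normalization, other centring and normalization, the value table, other probes, filters on dim probes and a 1.5-fold threshold. Computation used Python 3.11.15, numpy 2.4.6 and pandas 2.3.3.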

Additional observations from a re-analysis of the deposited data

How the results depend on the processing

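Of 171 alternative values for medians and counts, 132 stayed within the model error of 0.20 (medians) or within 1.5 times the count, and no value past 2-fold changed direction. Centring on detected probes, quantile normalization, the deposited value table and the mean of all probes moved none of these beyond that. Normexp moved the Cd74 minus Empty medians of IFIT to -0.19 and of GBP and IRG to -0.37, and the Tmem54 minus Empty median of GBP and IRG to -0.54. For Cd74 against Empty it left 3 of 36 members (all lower) past 2-fold, beside 114 of 15631 genes (62 lower). For Tmem54 against Empty it left 1 of 36 (lower), beside 64 of 15520 (33 lower). For Cd74 against Tmem54 it left 0 of 34, beside 194 of 15422 (107 lower). Its offset shrinks differences of dim probes by construction. Next-brightest probes, which exist for 10 members, gave Cd74 minus Empty medians of -0.12 (members) and -0.0725 (single genes). Their Cd74 minus Tmem54 median was 0.0756 (single genes, the opposite sign). They put 0 members past 2-fold in any comparison, beside 99 of 6903, 68 of 6880 and 132 of 6838 genes. None of these 10 members was past 2-fold by its brightest probe either. That 0 therefore follows from the genes covered, and the medians are over fewer genes than the main ones. Of 14472 genes measured on all 3 arrays, 181, 80 and 308 were past 2-fold. Of the 33 members among them, 0 were past 2-fold for Cd74 against Tmem54, where the 1 call was the Mx2 bound. Of 21 bright members, 3 (all lower), 2 (all lower) and 0 were past 2-fold in the same order of comparisons. Of 10080 bright genes, 67 (40 lower), 25 (20 lower) and 136 (75 lower) were. With no filter, 12 of 42 members (all lower) passed for Cd74 against Empty, beside 1614 of 24840 genes (860 lower). For Tmem54 against Empty, 11 members (10 lower, 1 higher) passed, beside 1351 of 24838 genes (837 lower). For Cd74 against Tmem54, 3 members (2 lower, 1 higher) passed, beside 1700 of 24838 genes (754 lower). At 1.5-fold, 13 of 36 members (all lower) passed for Cd74 against Empty, beside 1177 of 15631 genes (648 lower). For Tmem54 against Empty it was 16 of 36 (15 lower, 1 higher), beside 591 of 15520 (387 lower). For Cd74 against Tmem54 it was 2 of 34 (1 lower, 1 higher), beside 1520 of 15422 (738 lower). No paired analysis was possible because each group is 1 array and the labels carry no replicate numbers. Signal over background limits Oas3, Ifit1, Mx1, Mx2 and Cmpk2 most, and Oas2, Gbp2, Gbp3 and Ifit3 are also dim.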

Other observations

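Relatives of the effectors, a list of 57 genes from the same families and neighbouring ones, were mostly closer to 0. All 40 that were measured were well above background on all 3 arrays, and their median was -0.0071 for Cd74 minus Empty and -0.10 for Tmem54 minus Empty. At least 2-fold lower were 4 of them (beside 1.41% of all genes) for Cd74 and 0 (beside 0.818%) for Tmem54. Apol9a, the near copy of Apol9b, had 345.9 in Cd74 cells and 478.3 in Tmem54 cells, against 937.7 in Empty cells, with differences of -1.37 and -0.98. The chemokine gene Ccl5 differed by -1.08 and -0.96, and Oas1f, an OAS gene of the same cluster as Oas1a, by -0.25 and -0.57. Tgtp2, a GTPase of the IRG family, differed by -0.90 and -0.12, Samd9l by -0.51 and -0.11, and the immunoproteasome gene Psmb8 by -0.50 and -0.24.

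The neighbours of Ifi27 on chromosome 12 were both lower in Cd74 cells than in Tmem54 cells, by more than Ifi27 itself. Ifi27l2a had 571.8 in Cd74 cells and 1587 in Tmem54 cells, against 1407 in Empty cells, or -1.23 and 0.16. Ifi27l2b had 264.3 in Cd74 cells and 866.0 in Tmem54 cells, against 682.4 in Empty cells, or -1.30 and 0.33. For Cd74 minus Tmem54 they were at -1.40 and -1.63, beside -0.28 for Ifi27 itself. Whether these probes also read their paralogues was not tested.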
